A study of Homo sapiens with 12 samples.

Results

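The regions described here are peaks of accessible chromatin that stand alone or in small groups and lie away from the genes with tabulated splicing events, in T-47D cells treated with palbociclib or its solvent. T-47D is an established human line of luminal breast cancer that expresses the oestrogen receptor, and palbociclib inhibits the cell cycle kinases CDK4 and CDK6. ATAC-seq, which reads open chromatin as sites cut by the transposase Tn5, was run on 3 libraries of cells given 1 µM palbociclib for 24 h and on 3 libraries of cells given 0.1% DMSO, with replicates grown in separate dishes and 50000 cells per replicate. Poly(A) RNA sequencing of the same treatments, also with 3 libraries each, served as an independent readout of the neighbouring genes. All groups are of 1 cell line. The labels name separate dishes for ATAC-seq alone, so the RNA p-values measure the spread between samples, which may be technical.

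Peaks were members if they belonged to no chain of 5 or more peaks with gaps of 12500 bases or less, and if they lay over 10 kb from every gene span. A gene span ran from the first to the last exon boundary that the authors' table of skipped exons gives for a gene, which defined 13426 spans. The rule kept 20312 of 38121 peaks (53.3%), called span-distal peaks below. The others were 2098 clustered peaks, 11093 unclustered peaks inside spans and 4618 unclustered peaks within 10 kb of a span. No peak count entered the rule. The spans do rest on the authors' RNA data, since a gene without a tabulated skipped exon has no span. Distance from a span is therefore in part distance from an expressed gene.

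Most regulatory DNA of a mammalian genome lies outside promoters, as enhancers that bind transcription factors and act on genes over long distances. In luminal breast cells FOXA1, GATA3 and the oestrogen receptor bind many such sites. Promoters, in contrast, tend to be open in most cell types, and E2F factors control cell cycle genes mostly there. Inhibition of CDK4 and CDK6 keeps the retinoblastoma protein active, which holds E2F target genes off.

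The working name of the set, intergenic peaks far from genes, did not hold against the gene annotation. RefSeq genes on GRCh38, the build named in the submitters' processing notes, overlapped most of the peaks. Of the 20312 peaks, 7518 (37.0%) lay inside a protein-coding gene, 3438 (16.9%) inside another gene, 4081 (20.1%) within 10 kb of a gene, and 5275 (26.0%) over 10 kb from every RefSeq gene. The protein-coding genes that held them were often silent or had no tabulated skipped exon: 1331 of 3879 such genes (34.3%) had a span, and 1680 (43.3%) had a mean of at least 0.5 FPKM (RNA fragments scaled to transcript length and library size). Among genes that held unclustered peaks inside spans these shares were 95.6% and 93.1%. The set is therefore described as span-distal, and the 5275 peaks far from every RefSeq gene are given apart.

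Of the span-distal peaks, 1541 (7.59%) overlapped a RefSeq promoter window, the 250 bases before and 50 bases after a transcription start. These are the members whose sequence is held in the RefSeq table. The windows below are shown because they lie whole in span-distal peaks with large changes. H1-5 (a linker histone), POU3F2 (a transcription factor of neural development) and E2F7 (a repressor of E2F target genes, chosen after its values were seen) fell, and ATP10B (a lipid flippase) and LINC02658 (a long non-coding RNA) rose. Each is printed 5′ to 3′ on the strand of the gene, from RefSeq on GRCh38.p14, and capitals mark matches on either strand to a GC box, spelled GGGCGGG, to the ETS letters, spelled CCGGAAG, or to the TEAD letters, spelled CATTCC. The E2F letters, spelled TTCCCGC, were searched in the same way.
H1-5, chr6:27867539-27867838, minus strand: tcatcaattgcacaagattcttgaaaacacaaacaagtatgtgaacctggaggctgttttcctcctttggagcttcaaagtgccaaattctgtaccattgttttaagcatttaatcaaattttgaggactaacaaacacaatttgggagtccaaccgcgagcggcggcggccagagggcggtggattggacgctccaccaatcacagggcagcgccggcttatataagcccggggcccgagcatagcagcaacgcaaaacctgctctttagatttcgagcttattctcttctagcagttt
POU3F2, chr6:98834324-98834623, plus strand: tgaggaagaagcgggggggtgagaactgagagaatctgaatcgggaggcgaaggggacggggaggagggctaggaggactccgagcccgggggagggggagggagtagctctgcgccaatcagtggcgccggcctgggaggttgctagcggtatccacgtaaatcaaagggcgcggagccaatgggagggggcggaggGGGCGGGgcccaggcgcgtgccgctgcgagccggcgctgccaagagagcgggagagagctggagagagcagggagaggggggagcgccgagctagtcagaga
E2F7, chr12:77065520-77065819, minus strand: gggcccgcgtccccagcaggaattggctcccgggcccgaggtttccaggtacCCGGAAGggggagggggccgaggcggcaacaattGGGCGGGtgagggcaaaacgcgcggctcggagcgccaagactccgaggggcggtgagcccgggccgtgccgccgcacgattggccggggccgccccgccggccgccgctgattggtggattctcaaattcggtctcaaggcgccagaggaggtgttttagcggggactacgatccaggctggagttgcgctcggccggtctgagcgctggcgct
ATP10B, chr5:160685342-160685641, minus strand: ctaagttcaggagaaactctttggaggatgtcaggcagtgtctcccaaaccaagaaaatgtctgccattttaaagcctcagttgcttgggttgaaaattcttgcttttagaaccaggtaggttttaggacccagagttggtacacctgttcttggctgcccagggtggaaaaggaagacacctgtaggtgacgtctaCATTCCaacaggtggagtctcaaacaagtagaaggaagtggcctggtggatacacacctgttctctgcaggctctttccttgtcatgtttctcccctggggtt
LINC02658, chr10:43778853-43779152, minus strand: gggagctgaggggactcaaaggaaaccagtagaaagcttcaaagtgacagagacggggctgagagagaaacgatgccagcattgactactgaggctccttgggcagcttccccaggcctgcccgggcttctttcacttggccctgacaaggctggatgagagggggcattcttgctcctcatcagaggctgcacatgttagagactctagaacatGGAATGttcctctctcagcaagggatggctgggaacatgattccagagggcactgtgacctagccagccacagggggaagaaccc

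The E2F7 window held 1 GC box and 1 ETS match and was 70.7% G and C. The POU3F2 window held 1 GC box match and was 68.3% G and C. No searched motif was found in the H1-5 window, which was 47.3% G and C. The windows of the rising promoters ATP10B and LINC02658 each held 1 TEAD match and no GC box. The windows of KLHL26 (a rise) and CGB2 (the largest fall at a promoter by the same rule), not printed, held none of these letters.

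Shares over all windows put these matches in context. A GC box was present in 33.1% of all 35116 promoter windows, in 43.5% of the 1828 windows that touch a span-distal peak, in 123 of 207 windows (59.4%) of peaks that fell and in 6 of 38 (15.8%) of peaks that rose. The TEAD letters stood in 14.03% of all windows, in 18 of 207 (8.70%) of peaks that fell and in 15 of 38 (39.5%) of peaks that rose. The E2F letters stood in 6.55% of all windows and in 18 of 207 (8.70%) of peaks that fell. Matches describe the letters of these windows, and motifs can overlap. Windows of 1 peak can share bases. The sequence of the other members was not used here.

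The first comparison asked which span-distal peaks changed accessibility with palbociclib. The edgeR quasi-likelihood test, fitted on all 38121 peaks and with Benjamini-Hochberg adjustment over all of them, called 1105 span-distal peaks higher (5.44%) and 974 lower (4.80%) where the adjusted p was below 0.05. Over all peaks it called 5.41% higher and 6.46% lower, so the share of rising peaks was near the background and the share of falling peaks was below it. Called rises had a median log2 fold change of 0.44 and called falls one of -0.39. Only 6 rises and 11 falls of the 20312 peaks reached 1 on the log2 scale. Over all 38121 peaks 13 rises (0.0341%) and 29 falls (0.0761%) did. The normalised read counts (CPM, counts scaled to library size by TMM) of the groups did not overlap in 5359 span-distal peaks (26.4%), against 28.3% of all peaks. The median change of all span-distal peaks was 0.03, against 0.0043 for all peaks.

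The balance of rises and falls depended on scaling and on single libraries. Rises made up 53.2% of the calls, and 63.0% with library totals in place of TMM (1374 higher, 806 lower). The DESeq2 Wald test called 485 higher and 586 lower. Leaving out DMSO replicate 3 gave 540 rises and 628 falls, leaving out DMSO replicate 1 gave 683 rises and leaving out palbociclib replicate 1 gave 641 rises. Each fit that leaves out a library has fewer samples than the full one. The total counts in peaks ran from 12830062 to 18250496 per library, and the table's command line names no counting of read pairs, so they are taken as reads. In bulk chromatin, fewer cells with an open site and less opening per cell cannot be told apart. In the RNA libraries all 9 luminal markers stood at 41.9 FPKM or more, while of 12 markers of basal, fibroblast, leukocyte and endothelial cells 7 were not listed, 3 stayed under 1 FPKM, and ACTA2 and COL1A1 reached 9.17 and 26.0 FPKM.

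The shares of rises and falls varied with distance from the spans. Between 10 and 20 kb from the nearest span, 123 of 2927 peaks rose (4.20%) and 210 fell (7.17%). Between 20 and 50 kb, 234 of 5159 rose (4.54%) and 345 fell (6.69%), and between 50 and 100 kb, 185 of 4102 rose (4.51%) and 175 fell (4.27%). The last pair of counts turned to 74 and 105 with DESeq2, 159 and 198 with an offset smoothed on abundance, and 89 and 113 when DMSO replicate 3 was left out. Between 100 and 250 kb, 258 of 4244 rose (6.08%) and 156 fell (3.68%), and between 250 and 1000 kb, 255 of 3285 rose (7.76%) and 73 fell (2.22%). Beyond 1000 kb, 50 of 595 peaks rose (8.40%) and 15 fell (2.52%). The median change moved from -0.02 in the nearest band to 0.09 between 250 and 1000 kb and 0.11 beyond.

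**Figure D1:**
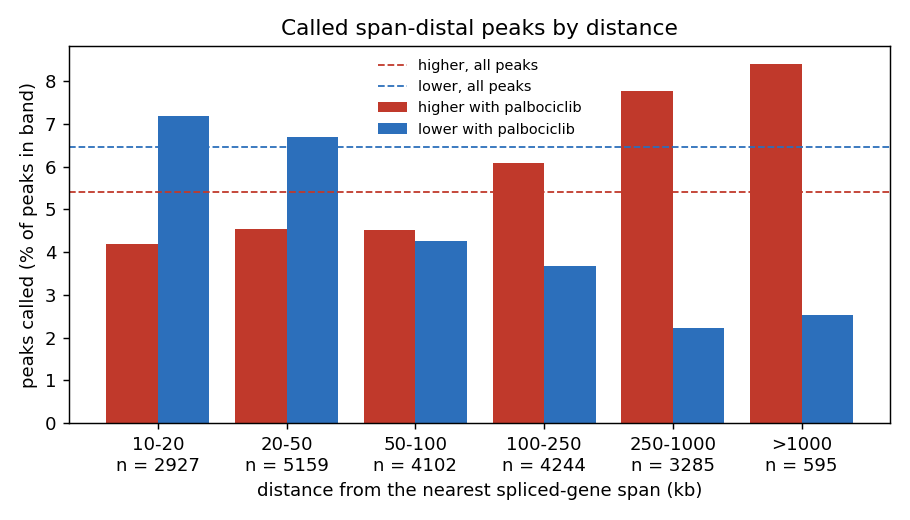
Share of span-distal peaks called higher (red) or lower (blue) with palbociclib, in percent of the peaks of each distance band (n under each band), with the shares over all peaks as dashed lines. The share of rises climbs from 4.20% to 8.40% and the share of falls drops from 7.17% to 2.52% between the nearest and the farthest band.

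The peaks far from spans were also weaker and narrower, and this moved with the changes. The median level fell from 14.4 CPM at 10 to 20 kb to 8.04 CPM beyond 1000 kb, and the median width from 625 to 574 bases. Split evenly into 3 classes by read count, the lowest class held 338 rises and 141 falls and the highest class 406 rises and 613 falls. Within the highest class, 11.5% rose and 5.54% fell at 250 to 1000 kb, against 5.01% and 11.1% at 10 to 20 kb. Within the lowest class the shares were 5.64% and 1.09% at 250 to 1000 kb, against 3.32% and 2.87% at 10 to 20 kb. With an offset smoothed on abundance, 6.51% rose and 2.68% fell at 250 to 1000 kb, against 4.27% and 6.66% at 10 to 20 kb. In all 13 alternative fits a larger share rose and a smaller share fell over 250 kb than up to 50 kb from a span. These fits reuse the same libraries, and that without a filter on low counts repeats the main fit. The difference between the bands has no test of its own. The counts over 250 kb, 305 rises and 88 falls of 3880 peaks, became 145 and 64 when DMSO replicate 3 was left out. They were 195 and 64 on leaving out DMSO replicate 1, 191 and 59 on leaving out palbociclib replicate 1, and 140 and 53 with DESeq2. Up to 50 kb, 357 rises and 555 falls of 8086 peaks became 186 and 351 when DMSO replicate 3 was left out, with 195 rises on leaving out DMSO replicate 1 and 204 for palbociclib replicate 1. There the median change was -0.0079, and 0.016 with library totals. With that scaling the peaks up to 50 kb showed no excess of falls, at 452 rises and 458 falls, and those over 250 kb gave 386 and 75.

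Shares of each library's peak counts, which amount to scaling by library totals, the setting with the most rises, are given without a test. Span-distal peaks over 250 kb from a span held 4.83%, 4.83% and 4.70% of all peak counts in DMSO replicates 1 to 3. They held 5.08%, 5.09% and 5.19% in palbociclib replicates 1 to 3. All 3 palbociclib libraries were above all 3 DMSO libraries. The whole set held 36.4% to 36.8% of peak counts with DMSO and 36.9% to 37.5% with palbociclib, again without overlap, whereas peaks up to 50 kb from a span held 18.4% to 18.5% and 18.3% to 18.5%, which overlap.

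**Figure D2:**
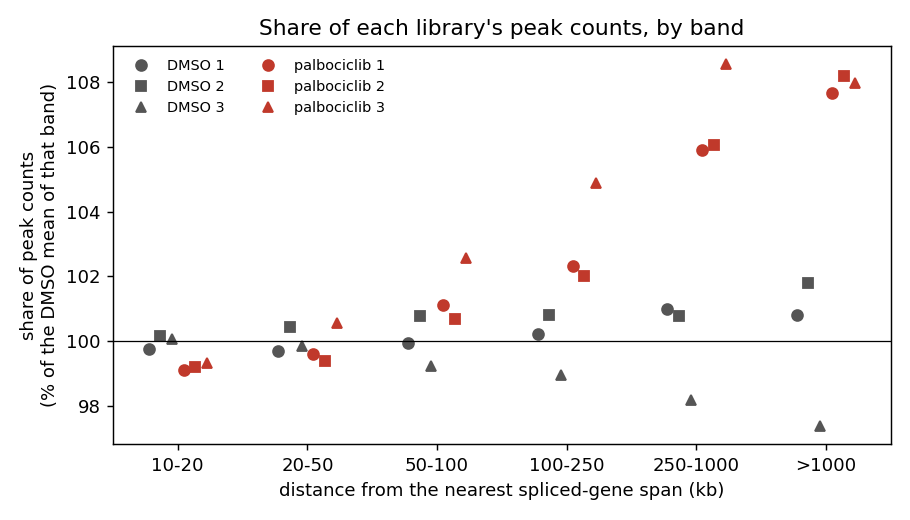
Share of each library's peak counts that falls in each distance band of span-distal peaks, as a percentage of the DMSO mean of that band; grey marks are DMSO and red marks palbociclib libraries, with 1 shape per replicate number. The red marks lie below all grey ones at 10 to 20 kb and above all grey ones from 100 kb outwards, with palbociclib replicate 3 highest at 250 to 1000 kb.

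The same counts were made by position relative to RefSeq genes. Of the 5275 peaks over 10 kb from every RefSeq gene, 342 rose (6.48%) and 158 fell (3.00%), with a median change of 0.05. Those 10 to 20 kb from a span showed little excess of falls, with 20 rises and 23 falls of 475 peaks. At 20 to 50 kb there were 55 rises and 55 falls of 1151, and at 250 to 1000 kb 102 rises and 19 falls of 1169. Of the 7518 peaks inside protein-coding genes, 351 rose (4.67%) and 430 fell (5.72%), with a median of 0.01. Inside other genes 195 rose (5.67%) and 178 fell (5.18%), with a median of 0.03, and within 10 kb of a gene 217 rose (5.32%) and 208 fell (5.10%), with a median of 0.02. The share of peak counts in the 5275 peaks was 7.72%, 7.83% and 7.68% in DMSO replicates 1 to 3 and 8.00%, 8.01% and 8.10% in palbociclib replicates 1 to 3, without overlap. Leaving out DMSO replicate 3 gave 164 rises and 109 falls for these peaks, and the DESeq2 Wald test 150 rises and 94 falls. Their rises numbered 207 on leaving out DMSO replicate 1 and 203 on leaving out palbociclib replicate 1.

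Span-distal peaks at promoters moved the other way. Of the 1541 at a RefSeq promoter window, 34 rose (2.21%) and 169 fell (11.0%), with a median change of -0.04, while of the 18771 others 1071 rose (5.71%) and 805 fell (4.29%), with a median of 0.03. Promoter peaks were stronger, at a median of 24.6 CPM against 10.6 CPM. Within the class of peaks with the most reads, 1.87% of promoter peaks rose and 13.1% fell, against 6.73% and 8.34% of the others. Among peaks outside the set, 1.13% of 3976 promoter peaks rose and 11.1% fell. Without DMSO replicate 3 the span-distal promoter peaks gave 18 rises and 97 falls. Rises numbered 14 on leaving out DMSO replicate 1, 17 for palbociclib replicate 1 and 21 for palbociclib replicate 2, and DESeq2 gave 12 rises and 97 falls. The promoter table used here has no window on chromosome 8, where 1090 span-distal peaks lie.

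The promoter windows shown above belong to peaks with the following values. Apart from E2F7, they were picked among called peaks whose groups do not overlap, so the lack of overlap there is no result. At H1-5, on chromosome 6 from 27867232 to 27867905, the DMSO libraries read 39.7, 35.1 and 41.6 CPM and the palbociclib libraries 22.0, 21.4 and 20.2 CPM. The mean fell from 38.8 ± 3.36 to 21.2 ± 0.94 CPM (SD, n = 3 libraries each), a log2 change of -0.87 with an adjusted p of 2.12e-12 by edgeR. At POU3F2, on chromosome 6 from 98834046 to 98834990, DMSO gave 43.6, 43.0 and 44.5 CPM and palbociclib 26.2, 26.1 and 25.4 CPM (log2 fold change -0.75, adjusted p 1.12e-11 by edgeR). Its RNA was near the floor, at 0.338 ± 0.0125 FPKM with DMSO and 0.0848 ± 0.0176 FPKM with palbociclib, and was below the filter of the RNA test. At CGB2, a chorionic gonadotropin gene with near-identical copies to which reads may be shared, the peak fell from 6.43 ± 0.197 to 3.31 ± 0.111 CPM (log2 fold change -0.95, adjusted p 0.000117 by edgeR).

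The E2F7 promoter peak, on chromosome 12 from 77065175 to 77066178, was among the stronger ones. DMSO libraries read 157, 139 and 149 CPM and palbociclib libraries 92.7, 86.6 and 88.2 CPM, a log2 change of -0.73 with an adjusted p of 5.72e-18 by edgeR. E2F7 RNA (ENSG00000165891) fell to 0.371 ± 0.0419 FPKM from 7.65 ± 0.344 FPKM with DMSO, which is -2.66 on the log2(FPKM + 1) scale with an adjusted p of 1.38e-08 by limma. The peak counts as span-distal because the span of E2F7 begins 20.4 kb away.

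Of the promoter peaks that rose, 3 are named, picked in the same way. At ATP10B, DMSO gave 7.55, 7.30 and 7.89 CPM and palbociclib 10.5, 12.7 and 10.1 CPM (log2 fold change 0.55, adjusted p 0.00528 by edgeR). At LINC02658, whose peak holds 3 promoter windows, DMSO gave 10.5, 13.4 and 10.3 CPM and palbociclib 17.6, 15.4 and 15.2 CPM (log2 fold change 0.49, adjusted p 0.00341 by edgeR). At KLHL26, a Kelch-repeat gene, the peak rose from 5.75 ± 0.216 to 8.16 ± 1.40 CPM (log2 fold change 0.50, adjusted p 0.0323 by edgeR). KLHL26 RNA was 1.88 ± 0.238 and 2.07 ± 0.200 FPKM (adjusted p 0.447 by limma).

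RNA of the same genes is a readout that the peak calls did not use. Of the 1662 genes with a window at a span-distal peak, 1296 matched a gene identifier and 722 were tested in RNA. Among 91 tested genes whose promoter peak fell, RNA was lower for 42 (46.2%) and higher for 7 (7.69%) at a limma adjusted p under 0.05, where 22.9% of all 15869 genes were lower and 20.9% higher. Among 13 tested genes whose promoter peak rose, RNA was higher for 5 and lower for 1. Over all 722 genes, 144 were lower (19.9%) and 154 higher (21.3%). Across the 748 pairs of peak and gene, Pearson's r was 0.34 and Spearman's rank correlation 0.28, over genes that share the same libraries.

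**Figure D3:**
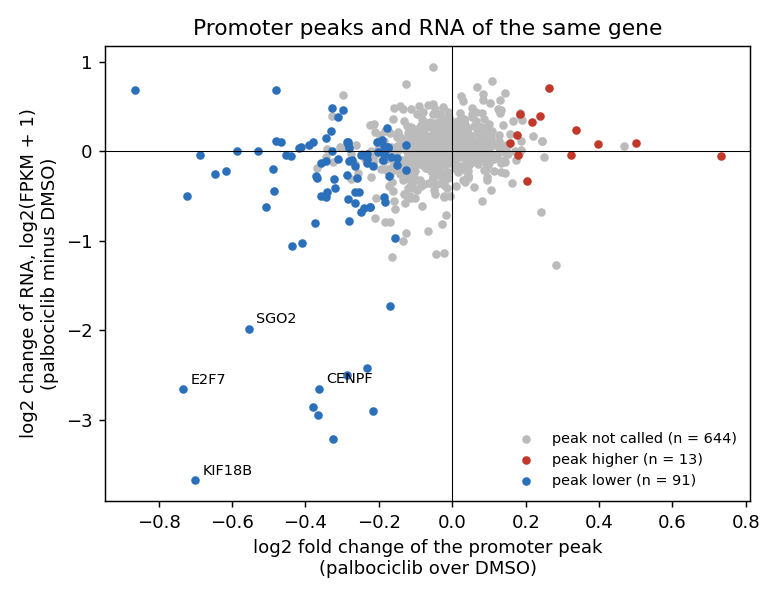
Log2 fold change of span-distal promoter peaks (horizontal) against the change of RNA of the same gene on the log2(FPKM + 1) scale (vertical), 748 pairs, with called falls in blue and called rises in red. A tail of genes with large RNA falls, among them KIF18B, E2F7, CENPF and SGO2, lies at falling peaks.

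Genes whose RNA fell by at least 1 on that scale mostly had promoter peaks that fell. There were 17 such genes with a span-distal promoter peak, and 13 of the 17 peaks fell in the edgeR test. Of the 17 peaks, 16 had a change below 0, with a median of -0.32. Over all 1541 span-distal promoter peaks, 169 fell (11.0%) and 560 had a change above 0 (36.3%), with a median of -0.04. The 17 genes included mitotic motor and centromere genes. KIF18B, a mitotic kinesin, had a peak that fell from 117 ± 7.57 to 71.7 ± 2.21 CPM (log2 fold change -0.70, adjusted p 6.29e-16 by edgeR) while its RNA changed by -3.68. The peak of SGO2, a protector of centromere cohesion, fell from 62.5 ± 2.28 to 42.5 ± 1.16 CPM (log2 fold change -0.55) with an RNA change of -1.98. CENPF, a kinetochore protein, had 109 ± 4.90 and 84.6 ± 1.17 CPM (log2 fold change -0.36), and KIF11, the spindle motor, 98.2 ± 6.05 and 76.1 ± 0.578 CPM (log2 fold change -0.37). At the promoter of E2F1, the founding activator of the family, the peak fell by less, from 126 ± 3.15 to 108 ± 3.80 CPM (log2 fold change -0.22, adjusted p 0.0018 by edgeR). The peaks of CLN6, COQ2, UBALD2 and LMNB2 were not called, with log2 changes of 0.28, -0.16, -0.04 and -0.02.

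Replication-dependent histone genes supply the histones of S phase and lack introns, so most have no skipped exon and no span. They were chosen here after their values were seen. Of 18 span-distal peaks that overlap such a gene, 13 fell (72.2%, against 6.46% of all peaks) and none rose in the edgeR test. They had a median of 37.9 CPM, and 14 of the 18 lay at a promoter window. Of the span-distal promoter peaks in the class with the most reads, 13.1% fell. At an unadjusted p under 0.05, 17 of the 18 histone peaks were lower and 0 higher, and the DESeq2 Wald test gave 11 lower and 0 higher. All 18 changes were below 0, with a median of -0.33, and 12 of the peaks lay on chromosome 6, 5 on chromosome 1 and 1 on chromosome 12. Over the 6 fits that leave out 1 library 11 to 13 fell.

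The core histone peaks gave the following values. At H3C4, on chromosome 6 from 26196921 to 26197485, DMSO read 53.7, 51.0 and 53.5 CPM and palbociclib 31.6, 27.4 and 27.6 CPM (log2 fold change -0.87). At H2AC16 DMSO read 63.1, 63.2 and 62.9 CPM and palbociclib 41.4, 42.0 and 38.0 CPM (log2 fold change -0.64). At H2BC9 the mean fell from 41.3 ± 3.37 to 25.5 ± 1.88 CPM (log2 fold change -0.69), and at H2BC3 from 56.1 ± 1.62 to 37.6 ± 3.55 CPM (log2 fold change -0.58). The groups were apart at all 4 genes. The smallest changes were at H3C10, with 63.9 ± 1.497 and 58.5 ± 1.492 CPM (log2 fold change -0.13, adjusted p 0.174 by edgeR), and at H4C16, with 22.2 ± 2.38 and 20.8 ± 1.11 CPM (log2 fold change -0.09, adjusted p 0.598 by edgeR).

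**Figure D4:**
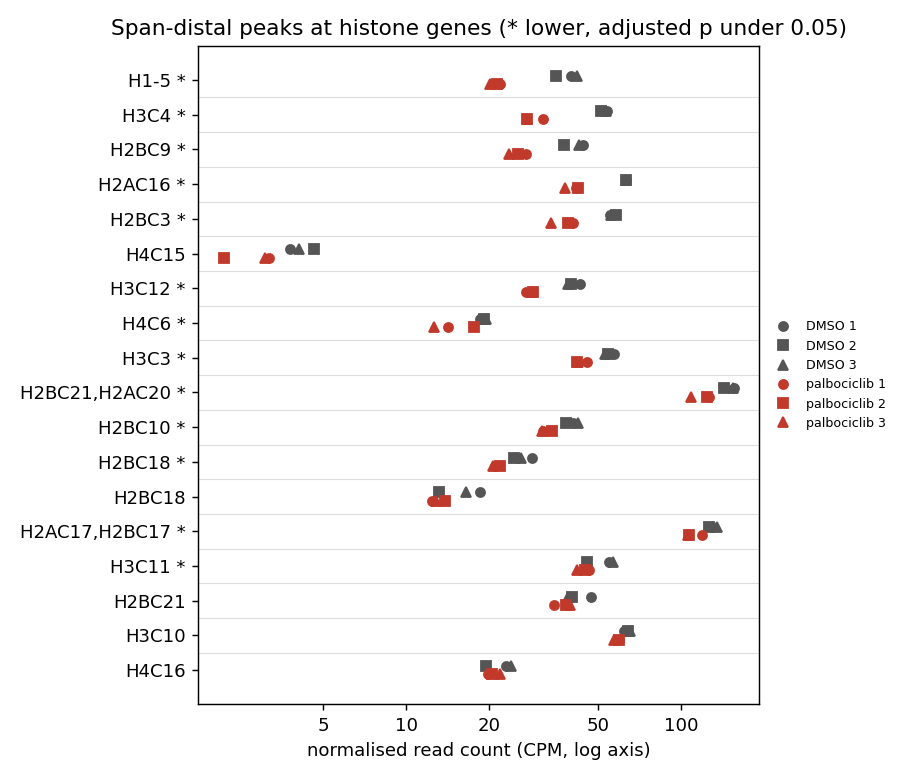
Normalised read count (CPM, log axis) of the 18 span-distal peaks at histone genes in each library, DMSO in grey and palbociclib in red, ordered by log2 change. The red marks are left of all grey marks at H1-5, H3C4, H2BC9, H2AC16 and H2BC3, and the groups do not overlap in 14 of the 18 peaks.

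The RNA of these genes did not follow. Of the 18 histone genes at span-distal peaks, 10 were tested, and 6 were higher and 1 lower in limma. H3C4 RNA (ENSG00000197409) rose from 4.94 ± 1.00 to 8.56 ± 1.53 FPKM (adjusted p 0.0056 by limma), while its peak fell. H3C12 RNA fell from 1.17 ± 0.288 to 0.419 ± 0.121 FPKM (adjusted p 0.0038 by limma), as did its peak (log2 fold change -0.51). Most transcripts of these genes carry no poly(A) tail, so poly(A) RNA shows only a part of them. Histone genes are near-identical copies of each other, and how reads that match several copies were placed is not given in the sources used here.

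Transfer RNA genes, the short genes transcribed by RNA polymerase III, also have no spans. Of 59 span-distal peaks over a tRNA gene, 13 fell (22.0%, against 6.46% of all peaks) and none rose in the edgeR test. At an unadjusted p under 0.05, 20 were lower and 0 higher, where 4867 of all 38121 peaks were lower, and the DESeq2 Wald test gave 6 lower and 0 higher. The median change was -0.07. The largest fall was at TRA-TGC6-1, on chromosome 6 from 28758148 to 28758554, where DMSO read 8.02, 7.24 and 7.96 CPM and palbociclib 4.17, 4.35 and 4.34 CPM (log2 fold change -0.85). At TRR-CCG2-1, on chromosome 17, the peak fell from 119 ± 3.27 to 90.2 ± 4.40 CPM (log2 fold change -0.39). On leaving out DMSO replicate 1, 2 or 3, or palbociclib replicate 2 or 3, 8 fell in each fit. These genes too have near-identical copies and were chosen after their values were seen.

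The 6 largest rises among called span-distal peaks that averaged 50 counts or more and whose groups do not overlap lay on different chromosomes, 3 of them inside genes. The largest falls were chosen in the same way, so the lack of overlap at these 12 peaks was fixed by the choice. The peak inside SYN3, a synaptic vesicle gene, read 2.20, 2.41 and 3.17 CPM with DMSO and 4.53, 6.33 and 6.69 CPM with palbociclib (log2 fold change 1.16, adjusted p 2.15e-05 by edgeR). It lies on chromosome 22 from 32511386 to 32511841, 12.8 kb from the span of FBXO7, whose RNA had an adjusted p of 0.342 by limma. The peak inside DSCAM, a neural adhesion gene, on chromosome 21 from 40310269 to 40310627, read 2.36, 2.47 and 2.18 CPM and then 5.21, 4.96 and 4.99 CPM (log2 fold change 1.11, adjusted p 4.78e-05 by edgeR).

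RNA of DSCAM-AS1 and DSCAM was higher beside this peak. The nearest span, 72.4 kb to the right, is that of DSCAM-AS1, an oestrogen-regulated long non-coding RNA of luminal breast cancer, which rose from 151 ± 7.84 to 269 ± 4.79 FPKM (log2 fold change 0.83, adjusted p 1.08e-06 by limma). DSCAM RNA itself was 2.84 ± 0.147 and 3.48 ± 0.186 FPKM (log2 fold change 0.22, adjusted p 0.0284 by limma). PCP4, 381 kb to the left, had an adjusted p of 0.369 by limma.

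Of these 6, the peak with the most reads was inside NHSL2, on chromosome X from 72045588 to 72046608. This peak, 1021 bases wide, read 19.7, 20.7 and 16.6 CPM with DMSO and 34.5, 41.8 and 33.7 CPM with palbociclib (log2 fold change 0.94, adjusted p 1.72e-12 by edgeR). Palbociclib replicate 2 was the highest. NHSL2 RNA was at 0.0326 ± 0.0241 and 0.0252 ± 0.0181 FPKM, below the filter of the RNA test. The span to the left, 482 kb away, is that of OGT, the O-GlcNAc transferase, whose RNA rose from 20.2 ± 0.435 to 23.6 ± 0.218 FPKM (log2 fold change 0.21, adjusted p 0.00183 by limma).

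The other 3 rises were outside genes and weak. On chromosome 18 from 27411987 to 27412391, 477 kb from the span of AQP4-AS1, DMSO read 2.04, 2.19 and 2.25 CPM and palbociclib 5.09, 3.88 and 4.77 CPM (log2 fold change 1.08). On chromosome 6 from 92865060 to 92865426, 1698 kb from the nearest span and 2712 kb from MANEA, DMSO read 3.07, 2.63 and 2.68 CPM and palbociclib 5.09, 6.53 and 5.34 CPM (log2 fold change 1.02). On chromosome 8 from 130659333 to 130659941, 257 kb from the span of ASAP1, a regulator of Arf GTPases, DMSO read 3.15, 5.05 and 3.81 CPM and palbociclib 9.44, 6.80 and 7.69 CPM (log2 fold change 0.97). The edgeR adjusted p were 0.000144, 0.000107 and 6.64e-05. RNA of ASAP1 fell from 8.71 ± 0.541 to 6.66 ± 0.585 FPKM (log2 fold change -0.34, adjusted p 0.00512 by limma), and RNA of MANEA, a Golgi mannosidase, from 8.59 ± 0.373 to 6.45 ± 0.215 FPKM (log2 fold change -0.36, adjusted p 0.000869 by limma). AQP4-AS1 RNA was 0.808 ± 0.305 and 0.945 ± 0.224 FPKM (adjusted p 0.547 by limma).

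**Figure D5:**
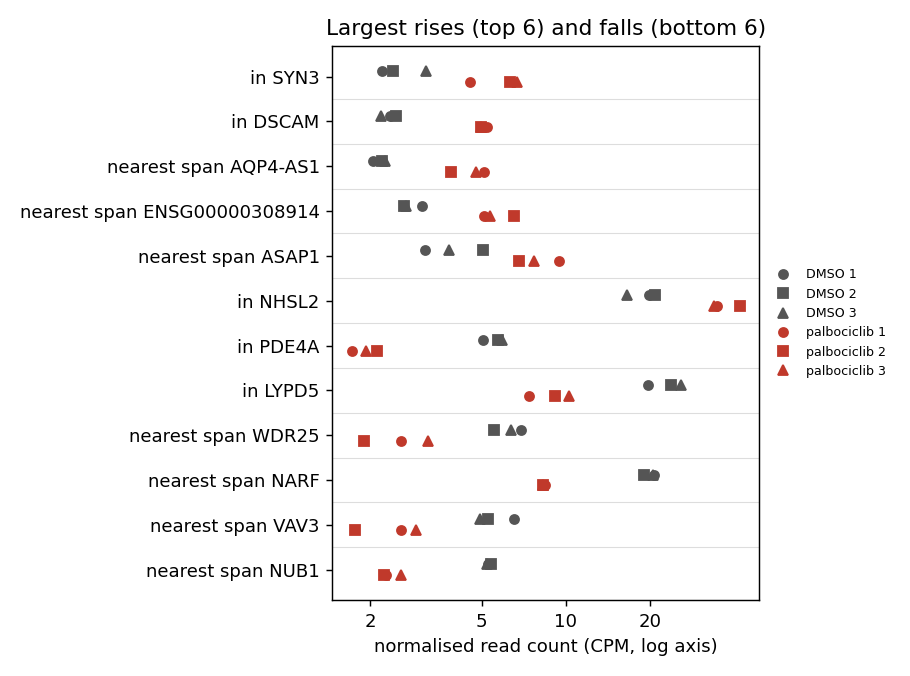
Normalised read count (CPM, log axis) of the 6 span-distal peaks with the largest rises and the 6 with the largest falls in each library, DMSO in grey and palbociclib in red, each named by the gene that holds it or by the nearest span. The 12 peaks were chosen among those whose groups do not overlap, and most read under 10 CPM.

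The 6 largest falls under the same limits ranged from -1.54 to -1.17 on the log2 scale. The peak inside PDE4A, a cAMP phosphodiesterase, on chromosome 19 from 10450940 to 10451259, read 5.03, 5.71 and 5.92 CPM with DMSO and 1.72, 2.11 and 1.92 CPM with palbociclib (log2 fold change -1.54, adjusted p 6.18e-08 by edgeR). RNA of PDE4A was under the filter of the RNA test, at 0.247 ± 0.0395 and 0.153 ± 0.0549 FPKM. Of the flanking spans, CDC37, a kinase chaperone 47.4 kb to the left, rose in RNA by 0.18 (adjusted p 0.00189 by limma), and KEAP1, the sensor that restrains NRF2, 34.9 kb to the right, had an adjusted p of 0.351 by limma.

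The LYPD5 and NARF peaks had the most reads of the 6 falls. The peak inside LYPD5, on chromosome 19 from 43798377 to 43799097, read 19.7, 23.8 and 25.7 CPM with DMSO and 7.35, 9.11 and 10.3 CPM with palbociclib (log2 fold change -1.38, adjusted p 2.64e-14 by edgeR). Replicate 1 was the lowest in each group. RNA of SMG9, a nonsense-mediated decay factor whose span is 50.8 kb to the left, fell from 21.0 ± 0.418 to 16.5 ± 0.691 FPKM (log2 fold change -0.33, adjusted p 0.000435 by limma), and that of ZNF283, 28.3 kb to the right, had an adjusted p of 0.552 by limma. LYPD5 RNA was 0.482 ± 0.316 and 0.0889 ± 0.0600 FPKM.

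The peak near NARF, on chromosome 17 from 82495870 to 82496108, is 239 bases wide and lies 1.08 kb from the tRNA gene TRX-CAT1-8. It read 20.6, 19.0 and 20.5 CPM with DMSO and 8.40, 8.30 and 8.26 CPM with palbociclib (log2 fold change -1.26, adjusted p 3.90e-13 by edgeR). RNA of NARF, whose span is 10.2 kb away, fell from 29.4 ± 1.13 to 24.6 ± 1.22 FPKM (log2 fold change -0.25, adjusted p 0.00325 by limma), and that of FOXK2, a forkhead factor 23.6 kb away, had an adjusted p of 0.192 by limma.

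The last 3 falls lay over 10 kb from every RefSeq gene. On chromosome 14 from 100621910 to 100622199, 34.5 kb from BEGAIN, DMSO read 6.92, 5.54 and 6.34 CPM and palbociclib 2.57, 1.90 and 3.21 CPM (log2 fold change -1.28, adjusted p 2.09e-06 by edgeR). On chromosome 7 from 151311421 to 151311755, DMSO read 5.27, 5.38 and 5.21 CPM and palbociclib 2.27, 2.24 and 2.56 CPM (log2 fold change -1.17, adjusted p 1.63e-05 by edgeR). On chromosome 1 from 107536230 to 107536530, DMSO read 6.53, 5.27 and 4.93 CPM and palbociclib 2.57, 1.77 and 2.92 CPM (log2 fold change -1.19, adjusted p 1.71e-05 by edgeR).

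The neighbours of these 3 went different ways in RNA. VAV3, a guanine nucleotide exchange factor 37.5 kb from the chromosome 1 peak, rose from 80.8 ± 2.66 to 113 ± 1.54 FPKM (log2 fold change 0.48, adjusted p 9.33e-06 by limma) beside a peak that fell. RNPC3, 3991 kb to its left, had an adjusted p of 0.204 by limma. NUB1, which promotes the breakdown of NEDD8 and 33.6 kb from the chromosome 7 peak, fell by 0.17 on the log2 scale (adjusted p 0.0198 by limma), and SMARCD3, a chromatin remodelling subunit 70.9 kb away, had an adjusted p of 0.135 by limma. WDR25, 154 kb from the chromosome 14 peak, had an adjusted p of 0.0541 by limma, and PPP2R5C, a phosphatase subunit 1141 kb away, fell from 95.2 ± 4.98 to 74.4 ± 0.973 FPKM (log2 fold change -0.35, adjusted p 0.000208 by limma).

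No change passed the test at the 3 most accessible span-distal peaks. The strongest lies inside SLC38A8 on chromosome 16 from 84013781 to 84014642 and read 487, 432 and 459 CPM with DMSO and 458, 451 and 472 CPM with palbociclib (log2 fold change 0.0047, adjusted p 0.960 by edgeR). The peak on chromosome 7 from 25862195 to 25862869, 29.1 kb from the nearest RefSeq gene, read 378 ± 5.24 and 383 ± 6.45 CPM (adjusted p 0.819 by edgeR). The promoter peak of MAP3K3, a MAP kinase kinase kinase, read 388 ± 9.30 and 363 ± 4.79 CPM (log2 fold change -0.10, adjusted p 0.106 by edgeR), with groups that did not overlap.

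The 2 peaks farthest from any span lie on chromosome 4, at 4800 and 4558 kb. The first, from 133909907 to 133910795, read 21.1 ± 0.349 and 23.4 ± 2.26 CPM (adjusted p 0.328 by edgeR), and the second, from 133668104 to 133668734, 8.65 ± 1.30 and 10.3 ± 0.630 CPM (adjusted p 0.282 by edgeR). PABPC4L, 37.7 kb from the first, is a RefSeq gene without a span. At the edge of the rule, the members nearest to a span lay 10.003 kb from PIAS4, with 4.35 ± 0.201 and 5.14 ± 0.322 CPM, and 10.004 kb from IQCN, with 35.5 ± 1.88 and 32.8 ± 3.89 CPM. An unclustered peak just left out lay 9.995 kb from AMPD3, with 42.3 ± 5.50 and 44.0 ± 3.03 CPM. All of these last 3 lie inside RefSeq protein-coding genes.

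The second comparison asked whether the nearest spliced gene of a changed peak changed in RNA. The nearest spans of the 1105 rising peaks belonged to 909 genes, of which 793 were tested, and 182 (23.0%) were higher and 192 (24.2%) lower. The nearest spans of the 974 falling peaks belonged to 815 genes, of which 728 were tested, and 160 (22.0%) were higher and 200 (27.5%) lower. Over the nearest genes of all span-distal peaks, 1171 of 5557 (21.1%) were higher and 1455 (26.2%) lower. The shares at changed peaks were thus near those at all span-distal peaks. With genes within 100 kb only, 108 of 460 (23.5%) were higher and 108 lower at rising peaks. At falling peaks 120 of 567 (21.2%) were higher and 166 (29.3%) lower, and at all span-distal peaks 21.7% of 5080 were higher and 26.2% lower.

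Individual genes with large RNA changes had changed span-distal peaks of both directions. PIP, a secreted protein of apocrine breast cells, rose from 2254 ± 70.2 to 4648 ± 77.0 FPKM (log2 fold change 1.04, adjusted p 1.05e-07 by limma), and a peak 35.6 kb away read 8.41, 8.12 and 6.84 CPM with DMSO and 12.01, 15.0 and 7.98 CPM with palbociclib (log2 fold change 0.59, adjusted p 0.00589 by edgeR). The groups overlapped there, since palbociclib replicate 3 was below the 2 higher DMSO libraries, and 11 of 13 alternatives made the call. IGFBP5, a binding protein of insulin-like growth factors, rose from 328 ± 4.23 to 613 ± 3.45 FPKM (adjusted p 3.28e-08 by limma), and of its 2 called peaks that at 55.1 kb fell (log2 fold change -0.47, adjusted p 0.015 by edgeR) and that at 395 kb rose (log2 fold change 0.29, adjusted p 0.0235 by edgeR). Each of the 2 was called in 9 of 13 alternatives. PPM1J, a protein phosphatase, rose from 17.0 ± 0.867 to 31.9 ± 3.83 FPKM (adjusted p 6.55e-05 by limma) with a peak at 22.4 kb that rose (log2 fold change 0.58, adjusted p 0.0238 by edgeR; 7 of 13 alternatives). The fourth gene, ENSG00000272622, which has no symbol, rose by 0.89 and had rising peaks at 668 and 396 kb (log2 fold change 0.40 and 0.21).

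Cell cycle genes gave the largest RNA falls, and peaks around them were mixed. Besides KIF18B, BIRC5, the inhibitor of apoptosis survivin, fell from 61.7 ± 0.893 to 4.88 ± 0.164 FPKM (adjusted p 3.90e-10 by limma). A peak 15.7 kb from its span and 0.341 kb from TMEM235 read 18.9, 21.9 and 19.2 CPM with DMSO and 11.2, 12.2 and 10.8 CPM with palbociclib (log2 fold change -0.82, adjusted p 1.09e-07 by edgeR). DTL, a ubiquitin ligase adaptor of S phase, fell from 24.3 ± 0.611 to 1.20 ± 0.0603 FPKM, while a peak 18.5 kb away rose (log2 fold change 0.31, adjusted p 0.049 by edgeR) in a call that 4 of 13 alternatives made. PLK1, a mitotic kinase, fell from 73.6 ± 3.24 to 6.05 ± 0.426 FPKM. Of its 2 called peaks that at 38.4 kb fell (log2 fold change -0.33, adjusted p 0.0229 by edgeR) and that at 216 kb, inside PRKCB, rose (log2 fold change 0.30, adjusted p 0.00951 by edgeR).

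Gene lists of the tissue and the drug were counted among nearest genes. Of 24 luminal and steroid receptor factors, 13 were the nearest gene of a span-distal peak, with 119 peaks in all, of which 6 rose (5.04%) and 11 fell (9.24%), and a median change of 0.04. Over all peaks 5.41% rose and 6.46% fell, and DESeq2 called 3 of the 119 higher and 7 lower. Of the falls, 3 lay 190 to 229 kb from TFAP2A, a transcription factor of luminal cells, whose RNA rose by 0.15 (adjusted p 0.0074 by limma). The strongest of them fell from 86.1 ± 2.08 to 69.5 ± 1.67 CPM (log2 fold change -0.31, adjusted p 5.50e-05 by edgeR). A peak 43.4 kb from ELF3, an epithelial ETS factor, fell from 83.2 ± 0.603 to 62.5 ± 0.206 CPM (log2 fold change -0.41) while ELF3 RNA rose by 0.79 (adjusted p 6.81e-06 by limma). Peaks at 627 and 961 kb from GATA3 fell (log2 fold change -0.27 and -0.50) and one at 1659 kb rose (log2 fold change 0.29), a call that 7 of 13 alternatives made.

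The other lists were nearest to fewer peaks, and over all peaks 5.41% rose and 6.46% fell. Only genes with a span could be a nearest gene. Of 24 oestrogen and progesterone receptor targets, 11 were nearest to 46 peaks. Of these, 3 rose (6.52%: the DSCAM-AS1 peak and peaks near AREG and KCNK5) and 2 fell (4.35%: near GREB1 and KCNK5). The median change was -0.03. At an unadjusted p under 0.05 in edgeR 5 were higher and 11 lower, and DESeq2 called 1 higher and 1 lower. The GREB1 call was made by 5 of 13 alternatives, the AREG call by 8, each KCNK5 call by 10 and the DSCAM-AS1 call by 13. Of 34 E2F and cell cycle genes, 18 were nearest to 69 peaks, of which 4 rose (5.80%) and 4 fell (5.80%). At an unadjusted p under 0.05 in edgeR 9 were higher and 5 lower, and DESeq2 called 3 higher and 3 lower. Among the edgeR calls, 2 peaks 50.7 and 56.6 kb from CCNE1, cyclin E1, fell (log2 fold change -0.51 and -0.52). One 10.9 kb away rose (log2 fold change 0.49), a call that 6 of 13 alternatives made. Of 16 interferon response genes, 3 were nearest to 11 peaks, of which 1 near OAS2 fell (9.09%) and 0 rose. At an unadjusted p under 0.05 in edgeR 2 were higher, and DESeq2 called 0 higher. Of 18 AP-1 and immediate early genes only 3 had a span, so the low count reflects the rule. Of these, 1 was nearest to 6 peaks, of which edgeR called 0, with 1 lower at an unadjusted p under 0.05, and DESeq2 called 0. The span-distal peak inside JUND, a gene of this list, was not counted here, because its nearest span is that of IQCN. It was not called (adjusted p 0.406 by edgeR).

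The shares of rises and falls also differed with grouping along the chromosome. Of 12553 span-distal peaks with no neighbour within 12500 bases, 730 rose (5.82%) and 481 fell (3.83%). Of 4962 in chains of 2, 262 rose (5.28%) and 273 fell (5.50%), and of 2015 in chains of 3, 76 rose (3.77%) and 172 fell (8.54%). In chains of 4 it was 37 (4.73%) and 48 (6.14%) of 782. Of the 2098 clustered peaks outside the set, 88 rose (4.19%) and 283 fell (13.5%). Over all peaks 5.41% rose and 6.46% fell. Grouped peaks were also stronger, with medians of 9.93, 12.5, 15.1 and 15.3 CPM for chains of 1 to 4. Clustered peaks had a median of 24.8 CPM. Adjacent span-distal peaks of 1 chain changed weakly together, with a Pearson r of 0.17 over 4037 pairs that share libraries, and where both were called, 68 of 79 pairs had the same direction. Successive single peaks, a median of 120 kb apart, gave an r of 0.10 over 12530 pairs.

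The balance of rises and falls varied by chromosome. On chromosome 4, 62 of 841 span-distal peaks rose (7.37%) and 19 fell (2.26%), and on chromosome 5, 92 of 1325 rose and 38 fell. On chromosome 19, which is dense in genes, 12 of 614 rose (1.95%) and 60 fell (9.77%). On chromosome 22, 15 of 375 rose and 28 fell. These are counts over peaks of the same 6 libraries, given without a test.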

How the data were processed

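ATAC-seq reads were counted by the authors with featureCounts 2.0.6 per the file headers, as raw counts per peak over 1 peak set for all 6 libraries. The submitters' processing notes also name Bowtie2 2.5.4-6, MACS3 3.0.3-0, Picard 3.4.0-0 and GRCh38, without a role. RNA values are FPKM as deposited by the authors, with STAR 2.7.10b, Salmon 1.10.2 and DESeq2 1.44.0 in the notes. The authors' deposited table gives a log2 fold change and an adjusted p-value per gene, used only as an alternative.

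Counts were fitted with edgeR 4.0.16 (R 4.3.3), TMM scaling and the quasi-likelihood test over all 38121 peaks of 3 against 3 libraries, where filterByExpr left out no peak. RNA was tested with limma 3.58.1 on log2(FPKM + 1), for genes with a mean of at least 0.5 FPKM. DESeq2 1.42.0 was an alternative. Both tests were tested on simulated data in which all features had the same spread, unlike the real data. In the ATAC-seq simulation edgeR called 79 of 100 changes of 0.5 and 100 of 100 changes of 1 on the log2 scale. The outcome for RNA is not given here. P-values are two-sided, adjusted by Benjamini-Hochberg, with calls below 0.05. ATAC replicates are separate dishes of 1 line, per the labels' protocols.

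The peak set, the gene lists and the histone and tRNA families were chosen with earlier results of these data known. Named peaks were the 6 called rises and 6 called falls with the largest fold change a mean of at least 50 counts and groups that do not overlap, the 3 with the most reads, the 2 farthest from a span, and the 4 nearest the 10 kb limit. Genes named were the spans on either side of these peaks and, among nearest genes of called peaks, the 4 that rose and the 4 that fell most in RNA. Of these, 1 peak at the limit and 1 flanking gene are not reported here. Promoters and other genes named were chosen after their values were seen. Gene names came from the deposited tables and RefSeq.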

Additional observations from a re-analysis of the deposited data

How the results depend on the processing

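The count of span-distal peaks was 1105 higher and 974 lower. DESeq2 gave 485 and 586, and the cause was not tested. Leaving out 1 library gave 540 to 940 higher and 628 to 919 lower, with fewer samples in each fit. Over 50 kb from every span 419 were lower, and over 10 kb from every RefSeq gene 342 were higher and 158 lower, both in fewer peaks. With the replicate block the counts were 1144 and 1007, and the RNA counts at nearest genes 186 higher and 204 lower. The labels do not say whether a replicate number is shared across treatments. Deviations of same-numbered libraries correlated at 0.0052, 0.039 and -0.025 in ATAC-seq and at 0.106, -0.0051 and 0.088 in RNA. With 3 libraries per group these values cannot settle whether libraries were paired. Without promoter windows, chosen after seeing the data, there were 1071 and 805. No called peak changed direction in any of the 13 alternative fits. The fit without a filter on low counts, included in the 13 throughout, repeats the main fit because filterByExpr left out no peak. The 12 named peaks kept their calls in 156 of 156 alternatives. They were picked as called peaks with the largest changes and groups that do not overlap, and the alternatives share libraries. Their kept calls are therefore no independent support. Nearest genes with higher RNA numbered 182, and 108 within 100 kb, where fewer genes were tested. Leaving out 1 RNA library gave 148 to 168 of these and 174 to 186 lower genes, against 200. Quantile normalization of the RNA values moved both counts. It gave 250 of 793 higher (31.5%) at rising peaks and 167 of 728 lower (22.9%) at falling peaks. The shares over all genes with that scaling are not given here. The smallest called changes over all span-distal peaks were 0.16 and -0.13 on the log2 scale. They are extremes over peaks with a mean of 37.7 to 6886 reads. They are not the limit of the test at the median of 166 reads per peak.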
